A study of Mus musculus with 14 samples.

Results

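The 9 genes described here belong to adrenergic and muscarinic signaling in the mouse left ventricle, most of them to its path to cyclic AMP (cAMP): the β1-adrenoceptor gene Adrb1, the α1-adrenoceptor genes Adra1a and Adra1b, the M2 muscarinic receptor gene Chrm2, the adenylyl cyclase genes Adcy5, Adcy6 and Adcy9, the receptor kinase gene Grk5 and Dbh, which encodes dopamine β-hydroxylase. They were taken by symbol from a table of read counts for 49315 genes, and each of the 9 symbols matched a single gene. On GRCm38 with GENCODE these are Adrb1 (chr19:56722199-56733113), Adra1a (chr14:66635251-66771168), Adra1b (chr11:43774606-43901210), Chrm2 (chr6:36388084-36528414), Adcy5 (chr16:35154877-35305738), Adcy6 (chr15:98589973-98610076), Adcy9 (chr16:4287529-4420498), Grk5 (chr19:60889749-61095968) and Dbh (chr2:27165233-27183200). All 9 passed the filter on low counts, as did 15292 genes in all. RNA with a poly(A) tail was sequenced from the left ventricle of wild-type (WT) mice and of HCN4F mice, a knock-in line in which a tyrosine of the pacemaker channel HCN4 is exchanged for phenylalanine, which makes the channel more active. The animals were males operated at an age of 10 to 12 weeks, and the hearts were taken 5 weeks later. The operation was transverse aortic constriction (TAC), a narrowing of the aorta that raises the pressure load on the left ventricle, or the same procedure without constriction (Sham). The groups were WT-Sham, HCN4F-Sham and HCN4F-TAC with n = 4 libraries each and WT-TAC with n = 2 (replicates 2 and 3). The study describes groups of equal size, and its further WT-TAC libraries were not analysed here. The knock-in is carried by the whole animal and is not limited to a cell type, its strain and zygosity are not given in the sources used here, and all groups underwent surgery.

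Noradrenaline released from sympathetic nerves is made from dopamine by dopamine β-hydroxylase, inside the storage vesicles of the nerve endings. In heart muscle cells it acts mainly on β1-adrenoceptors, which activate adenylyl cyclase through the stimulatory G protein, and the cAMP formed raises force and rate through protein kinase A. Adenylyl cyclases 5 and 6 are the main forms of heart muscle cells. Acetylcholine from the vagus nerve acts on M2 receptors, which lower cAMP through inhibitory G proteins and open potassium channels, whereas α1-adrenoceptors signal through Gq and phospholipase C and not through cAMP. GRK5 phosphorylates receptors that are occupied by an agonist, which uncouples them from their G proteins. HCN channels themselves bind cAMP.

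Between 22309914 and 35210939 reads were counted on genes per library, and mitochondrial genes took 13.9% to 23.1% of them. Levels are given as CPM, which are counts scaled to a fixed library total with the TMM method, and a difference passed the test where its Benjamini-Hochberg adjusted p-value over all 15292 genes in edgeR's quasi-likelihood test was under 0.05. SE stands for the standard error of a log2 fold change. HCN4F-TAC replicate 2 stood apart, with the lowest mitochondrial share. Its summed level of 5 genes of atrial muscle (Myl4, Myl7, Sln, Bmp10 and Sbk2) was 32.4 CPM against 2.61 to 8.64 CPM in the other libraries. Some of the results that rest on it are also given without it. Of the 3 atrial genes that could be tested Sbk2 fell in HCN4F hearts after TAC. The 8 genes of ventricular muscle summed to 51892 to 71714 CPM in all 14 libraries. In bulk tissue, fewer cells of a type and less RNA per cell cannot be told apart. The p-values measure the spread between animals, which the study names as biological replicates.

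The stretches of genome around the start sites of Dbh, Adra1b and Grk5 are shown because these 3 genes passed the test in HCN4F hearts after TAC, the first pair lower and the last higher. They run from 250 bases before to 50 bases after the start in RefSeq on GRCm38.p6, read 5′ to 3′ on the strand of the gene. Dbh lies at chr2:27165257-27165556 on the plus strand, Adra1b at chr11:43901188-43901487 on the minus strand (the farther upstream of its 2 starts) and Grk5 at chr19:60889499-60889798 on the plus strand. Capitals mark the core TGACG of the cAMP response element, on either strand.
Dbh: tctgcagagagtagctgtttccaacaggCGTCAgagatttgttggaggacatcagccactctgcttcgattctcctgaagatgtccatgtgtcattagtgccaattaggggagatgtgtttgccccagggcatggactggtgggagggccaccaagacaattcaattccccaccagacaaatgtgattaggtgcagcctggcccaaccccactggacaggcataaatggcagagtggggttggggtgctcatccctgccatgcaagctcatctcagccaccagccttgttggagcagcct
Adra1b: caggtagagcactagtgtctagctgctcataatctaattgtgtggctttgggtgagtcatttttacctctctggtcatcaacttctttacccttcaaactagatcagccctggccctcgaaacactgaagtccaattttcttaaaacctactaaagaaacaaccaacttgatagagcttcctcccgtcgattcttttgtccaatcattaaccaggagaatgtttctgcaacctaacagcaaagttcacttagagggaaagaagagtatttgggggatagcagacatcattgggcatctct
Grk5: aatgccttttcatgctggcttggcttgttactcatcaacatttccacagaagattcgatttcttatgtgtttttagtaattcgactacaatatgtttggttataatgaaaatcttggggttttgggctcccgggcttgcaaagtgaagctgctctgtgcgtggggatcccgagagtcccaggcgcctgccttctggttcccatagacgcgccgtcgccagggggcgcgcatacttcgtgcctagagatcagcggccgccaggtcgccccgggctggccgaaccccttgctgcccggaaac
Dbh holds 1 such core, as CGTCA from base 29 of the window, and the windows of Adra1b and Grk5 hold none. The full element TGACGTCA, which contains the core, was in 0 of the 8 windows found for 7 of the 9 genes, and is in 1.79% of the 32851 windows of this kind in the mouse genome. The core was in 3 of the 8 windows (Dbh, Adrb1 and Adcy9) and is in 20.8% of all windows. These matches describe letters in the windows and say nothing of binding.

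Per length, Adcy6 was the most abundant of the 9 transcripts and Dbh the least in each of the 4 groups. In WT-Sham hearts the order by mean CPM per kilobase of exon was Adcy6 (29.1), Adcy5 (15.8), Chrm2 (12.6), Adra1b (12.3), Adrb1 (5.24), Grk5 (3.50), Adcy9 (3.22), Adra1a (2.09) and Dbh (1.03). The range of Adcy5 overlapped that of Chrm2, although Adcy5 was above Chrm2 within each WT-Sham library. The ranges of Chrm2 and Adra1b overlapped, as did those of Grk5 and Adcy9, and within these pairs the order varied between libraries. Among the receptors the M2 receptor gene and Adra1b thus stood above Adrb1 in WT-Sham hearts, with no overlap between libraries. In HCN4F-TAC hearts Adra1b (5.67), Grk5 (5.62) and Adrb1 (5.25) lay together and overlapped, and the order of the means had Grk5 above Adrb1. Adcy6 shares 8.92% of its exon bases with Gm29331 on the opposite strand, and Chrm2 shares 2.35% with 9330158H04Rik, so their levels may hold reads of these genes if strand was not used in counting.

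**Figure D1:**
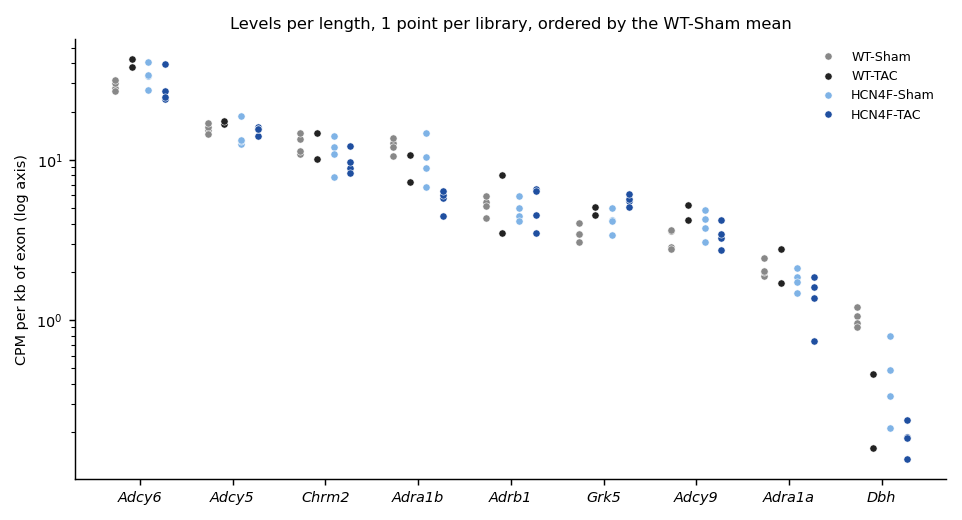
CPM per kilobase of exon (log axis) of each of the 9 genes, 1 point per library and 1 colour per group, ordered by the WT-Sham mean. Adcy6 lies highest and Dbh lowest in every group, and Dbh of WT-Sham lies above Dbh of the other 3 groups.

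The comparison of TAC with Sham asked how the pressure load changed these genes in each genotype. In WT hearts 1 of the 9 genes passed the test, Dbh, which fell, where 4.54% of all genes tested passed and 1.62% fell. In HCN4F hearts 3 of the 9 passed, with Dbh and Adra1b lower and Grk5 higher, where 13.6% of all genes passed, 7.2% higher and 6.41% lower. With the additional requirement of an absolute log2 fold change above 1, the threshold that the study used, Dbh alone remained in each genotype, beside 0.706% of all genes in WT and 2.75% in HCN4F hearts. The median log2 fold change of the 9 genes was 0.12 in WT and -0.23 in HCN4F hearts, and that of all tested genes was -0.02 and -0.01. The WT comparison rests on 2 TAC libraries: without WT-TAC replicate 3 only 11 genes of the whole table passed and none of the 9, and none of the 9 passed when any single WT-Sham library was left out.

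**Figure D2:**
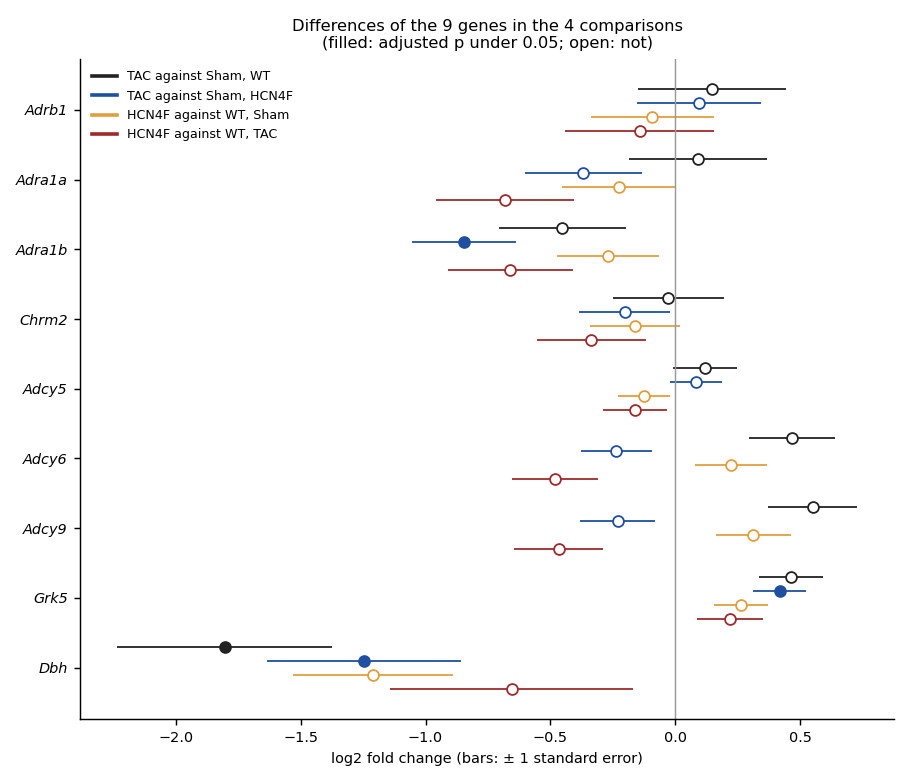
Log2 fold change of the 9 genes in the 4 comparisons, with bars of 1 standard error on either side. Filled points (Dbh in both TAC comparisons, Adra1b and Grk5 in HCN4F hearts) passed the adjusted p-value, and the points of Dbh lie to the left of 0 in all 4.

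Dbh had the largest fold change of the 9 genes after TAC in both genotypes. Its level was 2.85, 2.58, 3.25 and 2.45 CPM in WT-Sham replicates 1 to 4, and 1.23 and 0.429 CPM in WT-TAC replicates 2 and 3. Both TAC libraries lay below all WT-Sham libraries. Its log2 fold change was -1.80 (SE 0.43, 95% interval -2.71 to -0.89, edgeR, Benjamini-Hochberg adjusted p = 0.0308), a level 0.286 times that of WT-Sham. It was -2.68 without WT-TAC replicate 2 and -1.17 without replicate 3, and in the latter case it did not pass (edgeR, adjusted p = 0.339). Without WT-Sham replicate 1, 2, 3 or 4 the call was lost too, with log2 fold changes of -1.80, -1.84, -1.72 and -1.86 and adjusted p-values of 0.0515 to 0.0743 in edgeR's test.

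In HCN4F hearts the fall of Dbh with TAC started from lower values after Sham surgery. The HCN4F-Sham libraries held 1.32, 2.15, 0.904 and 0.574 CPM in replicates 1 to 4, and the HCN4F-TAC libraries 0.498, 0.494, 0.636 and 0.366 CPM. The groups overlapped through HCN4F-Sham replicate 4. This gave a log2 fold change of -1.25 (SE 0.39, 95% interval -2.07 to -0.43, edgeR, Benjamini-Hochberg adjusted p = 0.0422). This call was lost in 10 of 22 alternative settings. Without HCN4F-Sham replicate 2 the log2 fold change was -0.87 (edgeR, adjusted p = 0.134), and without HCN4F-Sham replicate 1 it was -1.20 (0.0798). Leaving out HCN4F-TAC replicate 1, 2 or 4 gave -1.24, -1.24 and -1.13 with adjusted p-values of 0.0851, 0.102 and 0.108 in edgeR. Leaving out a single WT-Sham library left it at -1.26 to -1.25 with adjusted p-values of 0.0503 to 0.0555, and edgeR on the compared groups alone gave -1.27 (0.0627). These values rest on 9 to 85 reads of Dbh per library, the fewest of the 9 genes.

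Between the genotypes after Sham surgery, all 4 HCN4F libraries held less Dbh than all 4 WT libraries. The mean was 1.24 ± 0.679 CPM (SD, n = 4) in HCN4F-Sham and 2.78 ± 0.354 CPM (SD, n = 4) in WT-Sham. The log2 fold change of -1.21 (SE 0.32, 95% interval -1.89 to -0.53) did not pass over all genes (edgeR, Benjamini-Hochberg adjusted p = 0.0985). It passed in 4 of 22 alternative settings, which were DESeq2 with all groups or with only these groups, no filter on low counts, and without HCN4F-Sham replicate 2 (-1.59). After TAC the means were 0.498 ± 0.110 CPM (SD, n = 4) in HCN4F and 0.831 ± 0.568 CPM (SD, n = 2) in WT, and the log2 fold change of -0.65 had an interval from -1.69 to 0.38, with 0.22 or -1.29 when WT-TAC replicate 2 or 3 was left out. The change of Dbh with TAC did not differ between genotypes beyond its error, with an interaction term of 0.56 and an interval from -0.69 to 1.80. Single libraries moved this term: it was 1.43 or -0.079 when WT-TAC replicate 2 or 3 was left out, and 0.94 or 0.30 when HCN4F-Sham replicate 2 or 4 was. The TAC and the Sham comparisons share the WT-Sham or the HCN4F-Sham libraries, so their values for Dbh are not independent of one another.

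**Figure D3:**
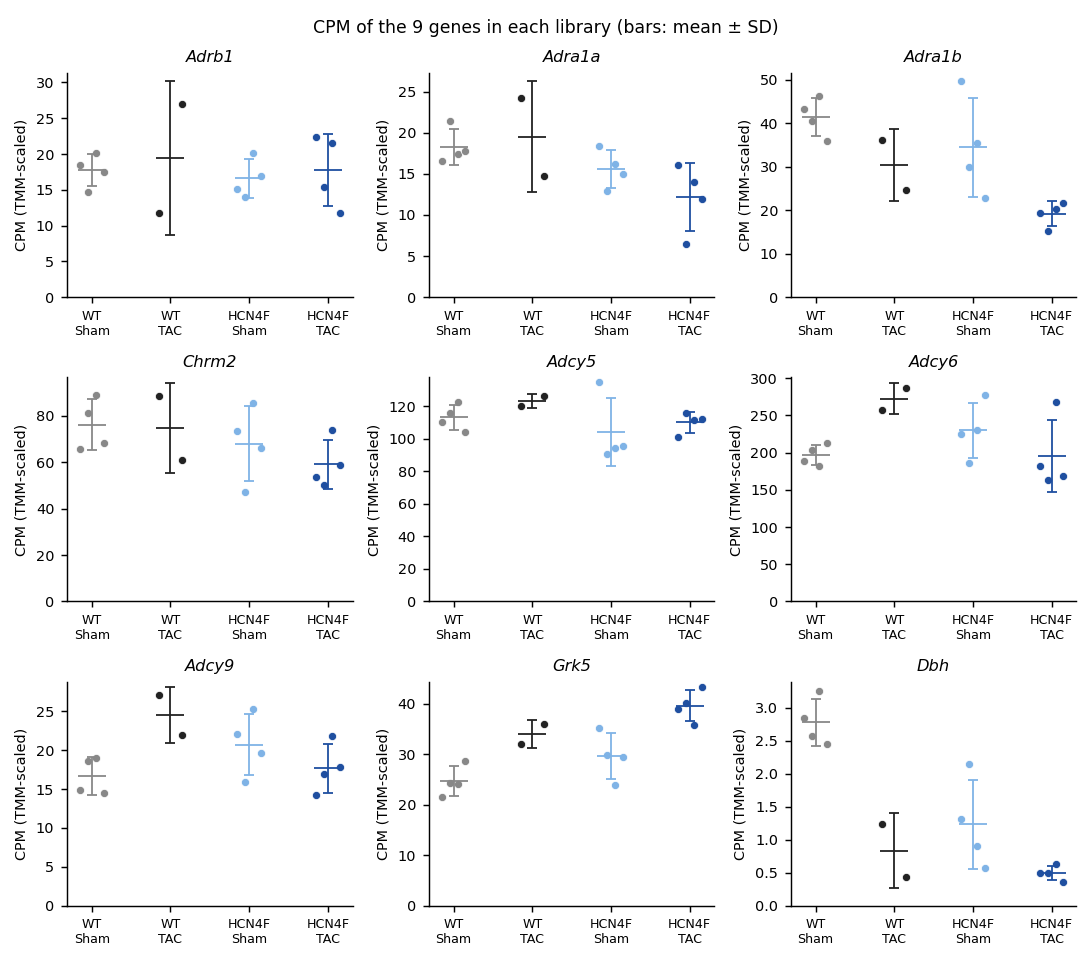
CPM of each of the 9 genes by group, 1 point per library, with the group mean and its SD (n = 4, and n = 2 in WT-TAC). Dbh is highest in the 4 WT-Sham libraries, Adra1b is lowest in the 4 HCN4F-TAC libraries and Grk5 is highest in 3 of them.

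Of the genes that define noradrenergic neurons, Th and Slc6a2 were at or near the limit of detection, whereas Phox2a, a transcription factor of these neurons, was above it in every library, with group means of 0.456 CPM in WT-Sham, 0.787 CPM in HCN4F-Sham, 0.658 CPM in WT-TAC and 0.415 CPM in HCN4F-TAC. Among the broader neuronal genes on the same list, Uchl1 had group means of 11.4 to 19.0 CPM, Stmn2 of 4.67 to 5.57 CPM and Tubb3 of 0.930 to 2.12 CPM. Of the genes of Schwann cells, which ensheathe the nerve fibres, most but not all fell in HCN4F hearts. Where no read was counted the level may still have been as high as 3 reads, which is 0.0859 to 0.137 CPM across libraries and covers counting error only. Th, the enzyme of the first step of catecholamine synthesis, was at 0 in all 4 WT-Sham libraries and reached at most 0.0572 CPM in any library. Slc6a2, the noradrenaline transporter, was between 0 and 0.333 CPM. Of the 12 sympathetic neuron genes listed, 5 could be tested, and 1 of them passed in HCN4F hearts after TAC and none in WT hearts: Uchl1, which is also expressed outside neurons, rose with a log2 fold change of 0.74 (SE 0.15, edgeR, adjusted p = 0.0038). The 12 genes summed to 16.0 to 23.9 CPM in HCN4F-Sham and 21.2 to 33.4 CPM in HCN4F-TAC (at most 28.6 CPM without replicate 2). In WT-Sham they summed to 17.0 to 19.8 CPM and in WT-TAC to 18.9 to 19.1 CPM. Uchl1 held most of this sum, with a mean of 11.4 CPM in HCN4F-Sham and 19.0 CPM in HCN4F-TAC. Slc6a2 had lower means after TAC in HCN4F hearts (0.177 and 0.0852 CPM, not tested), as did Phox2a (log2 fold change -0.90, edgeR, adjusted p = 0.072), with overlap for both.

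Of the 10 Schwann cell genes 7 fell in HCN4F hearts after TAC, beside 6.41% of all genes tested. In WT hearts 0 of the 10 passed in edgeR, with 2 at an unadjusted p under 0.05, and DESeq2 called 2. Among those that fell were Sox10, S100b, Cdh19, Foxd3, Gfra3 and Kcna1, with log2 fold changes of -1.05, -1.13, -0.90, -1.20, -1.58 and -1.54 and adjusted p-values of 0.00184 to 0.0433 in edgeR's quasi-likelihood test. The other 3 of the list did not pass in HCN4F hearts, among them Erbb3 and Ngfr: Erbb3 had a mean of 10.28 CPM after Sham and 12.01 CPM after TAC (0.22 on the log2 scale) and Ngfr one of 0.805 and 0.857 CPM (0.11), both higher after TAC. The 10 genes summed to 25.9 to 33.7 CPM in HCN4F-Sham and 16.0 to 24.4 CPM in HCN4F-TAC, with no overlap. In WT hearts the sums were 25.0 to 26.8 CPM after Sham and 23.9 to 27.7 CPM after TAC. Without HCN4F-TAC replicate 2 the count was again 7. The part of nerve tissue in the level of Dbh was not tested. None of the Schwann cell genes passed between the genotypes in edgeR, with 1 at an unadjusted p under 0.05 after either surgery. All 10 were among the genes tested for the interaction of genotype and surgery, and none passed in edgeR, so a difference in their change with TAC between the genotypes was not shown.

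**Figure D4:**
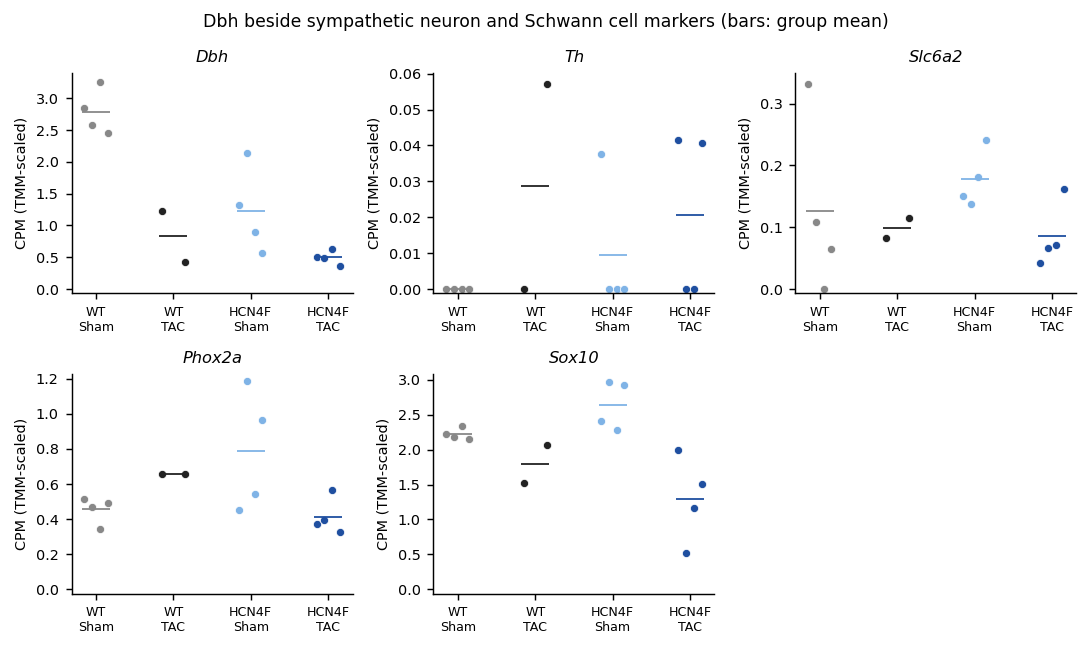
CPM of Dbh, of 3 further genes of sympathetic neurons (Th, Slc6a2, Phox2a) and of the Schwann cell gene Sox10 by group, 1 point per library with a bar at the group mean; each panel has its own scale. Th stays at or below 0.0572 CPM, and all 4 HCN4F-TAC libraries lie below the 4 HCN4F-Sham libraries for Sox10.

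Adra1b, the gene of the α1B-adrenoceptor, fell in HCN4F hearts after TAC. It was at 49.8, 29.9, 35.4 and 22.8 CPM in HCN4F-Sham replicates 1 to 4 and at 19.4, 15.2, 20.3 and 21.8 CPM in HCN4F-TAC replicates 1 to 4. Every TAC library lay below every Sham library, with a small gap between 21.8 and 22.8 CPM. On the log2 scale the change was -0.85 (SE 0.21, 95% interval -1.30 to -0.39, edgeR, Benjamini-Hochberg adjusted p = 0.0176). Without HCN4F-TAC replicate 2 it was -0.75 and the call was lost (edgeR, adjusted p = 0.0529), as it was without a filter on low counts (-0.83, adjusted p = 0.0531). The same library held the lowest Adra1b level of all and the high level of atrial genes.

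In WT hearts Adra1b did not pass in edgeR on all groups, and it passed with DESeq2 on the compared groups alone (-0.44, adjusted p = 0.0201). Its levels were 43.2, 40.6, 46.2 and 36.0 CPM in WT-Sham and 36.2 and 24.6 CPM in WT-TAC, where the higher TAC library lay within the Sham range. The log2 fold change was -0.45 with an interval from -1.003 to 0.10, and the interaction term of -0.39 had an interval from -1.10 to 0.31. Leaving out WT-TAC replicate 2 or 3 moved the former to -0.75 or -0.19 and the latter to -0.09 or -0.65, and the latter was -0.16 without HCN4F-Sham replicate 1. After TAC all 4 HCN4F libraries lay below both WT libraries, and the log2 fold change of -0.66 between genotypes (SE 0.25, edgeR, adjusted p = 0.303) did not pass, though it did with DESeq2 on the compared groups (-0.67, adjusted p = 0.0441), where 22.2% of all genes had groups that did not overlap in this comparison. With either of these WT-TAC libraries left out the edgeR value was -0.36 or -0.92. After Sham surgery the genotypes overlapped, with a log2 fold change of -0.27, which was -0.50 without HCN4F-Sham replicate 1 and -0.11 without replicate 4.

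Adra1a, the gene of the α1A-adrenoceptor, did not pass in any comparison. It was at 16.5 to 21.4 CPM in WT-Sham, 12.9 to 18.3 CPM in HCN4F-Sham, 24.3 and 14.8 CPM in WT-TAC, and 16.1, 6.49, 14.1 and 11.9 CPM in HCN4F-TAC replicates 1 to 4. The low value belonged to HCN4F-TAC replicate 2. The log2 fold change with TAC was 0.09 in WT and -0.37 in HCN4F hearts (interval -0.87 to 0.13), and without that library the latter was -0.16. Between the genotypes after TAC it was -0.68 (interval -1.28 to -0.09, edgeR, adjusted p = 0.335), but -0.29 without WT-TAC replicate 2, -1.004 without WT-TAC replicate 3 and -0.48 without HCN4F-TAC replicate 2. The summed level of both α1-adrenoceptor genes per length was 2.77 ± 0.373 times (SD, n = 4) that of Adrb1 in WT-Sham, 2.50 ± 0.898 times (SD, n = 4) in HCN4F-Sham and 1.44 ± 0.540 times (SD, n = 4) in HCN4F-TAC, and 3.86 and 1.12 times in the 2 WT-TAC libraries.

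Adrb1 and Chrm2, the receptors that raise and lower cAMP, gave no difference that passed the test. Adrb1 was at 17.7 ± 2.23 CPM in WT-Sham, 16.6 ± 2.69 CPM in HCN4F-Sham and 17.8 ± 5.05 CPM in HCN4F-TAC (SD, n = 4 each). In WT-TAC it was at 11.8 CPM in replicate 2 and 27.0 CPM in replicate 3, so that one lay below and the other above the whole WT-Sham range. With TAC its log2 fold change was 0.15 in WT (interval -0.50 to 0.79) and 0.10 in HCN4F hearts (interval -0.44 to 0.63), and in WT it was -0.58 without WT-TAC replicate 3 and 0.61 without replicate 2. With intervals of this width, neither a moderate change of Adrb1 nor its absence was shown. Chrm2 was at 76.1 ± 11.0 CPM in WT-Sham, 68.0 ± 16.1 CPM in HCN4F-Sham and 59.1 ± 10.6 CPM in HCN4F-TAC (SD, n = 4 each), and at 88.5 and 61.1 CPM in WT-TAC. Its log2 fold change with TAC was -0.03 in WT (interval -0.50 to 0.45) and -0.20 in HCN4F hearts (interval -0.59 to 0.19). With single libraries left out the HCN4F value ranged from -0.34 to -0.081. Between genotypes it was -0.16 after Sham, with a range from -0.29 to -0.021 in the same way. After TAC the difference of -0.34 became -0.047 or -0.58 when WT-TAC replicate 2 or 3 was left out.

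The adenylyl cyclase genes Adcy6 and Adcy9 were higher in WT-TAC than in WT-Sham without passing in edgeR on all groups, and were not higher in HCN4F-TAC than in HCN4F-Sham. Adcy6 was at 189, 204, 183 and 213 CPM in WT-Sham replicates 1 to 4 and at 258 and 287 CPM in WT-TAC. Both TAC libraries lay above all Sham libraries. Its log2 fold change was 0.47 (SE 0.17, 95% interval 0.10 to 0.84, edgeR, adjusted p = 0.127). With the compared groups alone Adcy6 passed, at 0.48 in both DESeq2 (adjusted p = 1.19e-05) and edgeR (adjusted p = 0.00469). In HCN4F hearts it was at 225, 186, 231 and 277 CPM after Sham and at 183, 163, 267 and 168 CPM after TAC. There 3 of the 4 TAC libraries lay below all Sham libraries, and replicate 3 lay within their range. This gave a log2 fold change of -0.24 with an interval from -0.54 to 0.07.

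Adcy9 showed values of the same kind at a lower level. It was at 14.8, 18.6, 19.0 and 14.4 CPM in WT-Sham and at 27.1 and 21.95 CPM in WT-TAC, with no overlap. On the log2 scale the change was 0.55 (SE 0.18, 95% interval 0.17 to 0.93, edgeR, adjusted p = 0.0893). Adcy9 passed at 0.56 with DESeq2 on all groups (adjusted p = 0.0416), and on the compared groups alone with DESeq2 (adjusted p = 0.00189) and edgeR (adjusted p = 0.0203). In HCN4F hearts it was at 22.1, 16.0, 25.3 and 19.6 CPM after Sham and 14.2, 16.9, 21.8 and 17.8 CPM after TAC, with overlap and a log2 fold change of -0.23 (interval -0.55 to 0.09). In WT hearts the groups of 4 of the 9 genes did not overlap (Dbh, Adcy6, Adcy9 and Grk5), where this held for 39.2% of all genes tested. In HCN4F hearts it held for 2 of the 9 (Adra1b and Grk5) and for 15.1% of all genes.

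The change with TAC in WT and that in HCN4F hearts differed by an interaction term of -0.70 for Adcy6 (interval -1.18 to -0.22) and -0.78 for Adcy9 (interval -1.28 to -0.28). Neither passed over all genes (adjusted p = 0.439 for Adcy6 and 0.419 for Adcy9 in edgeR with Benjamini-Hochberg adjustment). No gene of the whole table passed for the interaction in edgeR's test, while 1418 genes or 9.27% had an unadjusted p under 0.05, and DESeq2 on all groups called 40 genes and none of the 9. The calls for Adcy6 turned on HCN4F-TAC replicate 3. Without it the interaction term was -0.89 (edgeR, adjusted p = 0.0295) and the fall with TAC in HCN4F hearts passed with -0.43 (adjusted p = 0.0142). The rise in WT hearts passed with an unchanged 0.47 (adjusted p = 0.037), and the difference between genotypes after TAC passed with -0.67 (adjusted p = 0.00948). Leaving this library out raised the calls over all genes too, to 78 for the interaction and from 17 to 454 between genotypes after TAC. With all 14 libraries the difference between genotypes after TAC was -0.48 for Adcy6 (adjusted p = 0.264) and -0.47 for Adcy9 (adjusted p = 0.3) in edgeR's test.

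Adcy5 had the smallest fold changes of the 3 cyclase genes. It was at 110.4, 115, 123 and 104 CPM in WT-Sham, 120.03 and 126 CPM in WT-TAC, 135, 90.7, 94.3 and 95.3 CPM in HCN4F-Sham, and 101, 116, 111 and 112 CPM in HCN4F-TAC. HCN4F-Sham replicate 1 lay above every other library of all groups. The log2 fold change with TAC was 0.12 in WT (interval -0.15 to 0.39) and 0.08 in HCN4F hearts (interval -0.14 to 0.31), and between genotypes it was -0.12 after Sham and -0.16 after TAC. Without HCN4F-Sham replicate 1 the change with TAC in HCN4F hearts was 0.24 (edgeR, adjusted p = 0.0406) and the difference between genotypes after Sham -0.28 (adjusted p = 0.0456), and both passed. Leaving out this library raised the calls over all genes between genotypes after Sham from 72 to 567. Per length, Adcy6 stood at 1.86 ± 0.238 times Adcy5 in WT-Sham and 2.40 ± 0.564 times in HCN4F-Sham, and at 1.89 ± 0.475 times in HCN4F-TAC (SD, n = 4 each) and 2.27 and 2.42 times in the WT-TAC libraries.

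Grk5, the receptor kinase, was higher after TAC in both genotypes and passed in HCN4F hearts. It was at 35.3, 29.9, 24.0 and 29.4 CPM in HCN4F-Sham replicates 1 to 4 and at 39.0, 40.3, 35.9 and 43.3 CPM in HCN4F-TAC replicates 1 to 4. The groups did not overlap, with replicate 1 the nearest of the Sham libraries. The log2 fold change was 0.42 (SE 0.11, 95% interval 0.19 to 0.64, edgeR, Benjamini-Hochberg adjusted p = 0.0155), and it was 0.41 and still passed without HCN4F-TAC replicate 2. Of 22 alternative settings the one without HCN4F-TAC replicate 4 lost the call (0.37, edgeR, adjusted p = 0.0525).

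In WT hearts Grk5 was at 21.6, 24.3, 24.2 and 28.7 CPM after Sham and at 32.0 and 36.0 CPM after TAC, again with no overlap. Its log2 fold change was 0.46 (SE 0.13, 95% interval 0.19 to 0.74, edgeR, adjusted p = 0.0509), just short of the threshold, and it passed in 10 of 22 alternative settings. The interaction term was -0.05 with an interval from -0.40 to 0.31. Between the genotypes Grk5 differed by 0.26 after Sham (interval 0.04 to 0.49, edgeR, adjusted p = 0.26). This was 0.17 without HCN4F-Sham replicate 1 and 0.36 without replicate 3. After TAC the difference was 0.22 (interval -0.06 to 0.50, and 0.14 without WT-TAC replicate 2).

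The comparison of HCN4F with WT asked what the knock-in changed under each surgery. In edgeR 0 of the 9 genes passed after Sham, where 0.471% of all genes tested did, and 0 after TAC, where 0.111% did. An unadjusted p under 0.05 was reached by 2 of the 9 after Sham (Grk5 and Dbh) and 15.2% of all genes, and by 4 of the 9 after TAC (Adra1a, Adra1b, Adcy6 and Adcy9) and 12.5% of all genes. DESeq2 with all groups called 1 of the 9 after Sham, Dbh, and 0 after TAC. After Sham 1 of the 9 had groups that did not overlap, Dbh, beside 8.56% of all genes. After TAC there were 3, Adra1b, Adcy5 and Adcy9, all lower in HCN4F, beside 22.2% of all genes. The median log2 fold change of the 9 genes was -0.12 after Sham and -0.47 after TAC, and that of all tested genes was 0.00 in both. After TAC all 7 fibroblast genes listed had groups that did not overlap and an unadjusted p under 0.05, with none passing in edgeR, and their part in these differences was not tested.

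The same tests were read for 79 further genes of the pathway, of which 66 could be tested. In WT hearts 5 passed after TAC, 3 higher and 2 lower, beside 4.54% of all genes tested. In HCN4F hearts 14 passed, 6 higher and 8 lower, beside 13.6% of all genes (7.2% higher and 6.41% lower). None passed in edgeR between the genotypes or for the interaction, where 9 (Sham), 13 (TAC) and 8 (interaction) had an unadjusted p under 0.05, beside 15.2%, 12.5% and 9.27% of all genes. The median log2 fold change of these genes was -0.01 in WT and 0.01 in HCN4F hearts. In WT hearts the number was 0 without WT-TAC replicate 3, 2 without WT-TAC replicate 2, 1 without WT-Sham replicate 1, 2 or 4, 3 without HCN4F-TAC replicate 4 and 8 without HCN4F-Sham replicate 3. In HCN4F hearts it was 11 without HCN4F-TAC replicate 2 and 10 to 15 over all libraries left out.

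Among the other receptors 5 of 10 could be tested and 0 passed in edgeR, with 2 at an unadjusted p under 0.05 in each genotype. Adra2c had -0.77 in WT and -0.49 in HCN4F hearts, Adra1d 0.05 and 0.23, Adra2b 0.05 and -0.59, and Chrm3 -0.86 and -0.91. Adrb3, Adra2a, Chrm1, Chrm4 and Chrm5 had mean levels of at most 0.0376 CPM in every group and were not tested.

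Of the 17 genes of G proteins, RGS proteins and the potassium channel opened by M2 receptors, 1 rose and 1 fell in WT hearts, and 2 rose and 5 fell in HCN4F hearts. Over all genes tested 4.54% passed in WT hearts, and 7.2% rose and 6.41% fell in HCN4F hearts. Gnao1, the α subunit of the Go protein that inhibitory receptors use, was at 23.0, 23.1, 25.1 and 23.4 CPM in WT-Sham and 42.5 and 43.4 CPM in WT-TAC. In HCN4F hearts it was at 22.7, 24.8, 18.7 and 24.0 CPM after Sham and 54.5, 63.4, 41.8 and 54.1 CPM after TAC. It rose in both genotypes with no overlap, with log2 fold changes of 0.86 (adjusted p = 0.00263) and 1.25 (edgeR, adjusted p = 7.16e-06). In HCN4F hearts Kcnj3 and Kcnj5, the subunits of that potassium channel, fell with log2 fold changes of -0.81 and -0.50. Rgs2 and Rgs6, which speed up the return of G proteins to rest, fell by 0.92 and 0.43 on the log2 scale, Gnai1 fell by 0.47 and Gnai3 rose by 0.26. In WT hearts Rgs4 fell by 0.50, and Kcnj3 (-0.37) and Rgs2 (-0.64) did not pass. In HCN4F hearts Gnao1, Kcnj3 and Rgs2 passed in all 22 alternative settings, whereas the call was lost in 13 for Gnai3, 8 for Kcnj5, 8 for Rgs6 and 4 for Gnai1. In WT hearts the call of Rgs4 was lost in 6 and that of Gnao1 in 1, the one without WT-TAC replicate 3.

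Of the other adenylyl cyclase genes 5 of 7 could be tested. Adcy7 was at 6.89, 11.1, 8.42 and 8.94 CPM in HCN4F-Sham and at 18.8, 24.9, 15.7 and 20.7 CPM in HCN4F-TAC, with no overlap, and rose with a log2 fold change of 1.18 (SE 0.15, edgeR, adjusted p = 0.000175). In WT hearts it was at 7.15 to 9.72 CPM after Sham and at 10.9 and 13.9 CPM after TAC, with 0.53 (edgeR, adjusted p = 0.107). Adcy8 fell in HCN4F hearts with -1.26 at a mean level of 1.37 CPM after Sham and 0.581 CPM after TAC, and this call was lost in 5 of 21 settings, among them those without HCN4F-Sham replicate 1 or 4 and without HCN4F-TAC replicate 2 or 4. Adcy7 is abundant in blood cells and macrophages, and the 6 macrophage genes listed summed to 170.3 to 223.6 CPM in HCN4F-Sham and 163.6 to 255.5 CPM in HCN4F-TAC, where none of the 6 passed in edgeR, also at an unadjusted p under 0.05. The part of these cells in the level of Adcy7 was not tested. None of the 6 other receptor kinase and arrestin genes passed in edgeR in either genotype (1 at an unadjusted p under 0.05 in WT and 0 in HCN4F hearts), among them Grk2 with 0.01 in WT and 0.05 in HCN4F hearts.

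Of 22 genes that act downstream of cAMP, Pkig, an inhibitor of protein kinase A, fell in both genotypes with log2 fold changes of -0.37 in WT and -0.37 in HCN4F hearts. Prkar1a, a regulatory subunit of protein kinase A, was at 508, 307, 349 and 360.2 CPM in HCN4F-Sham and 613, 975.5, 502 and 611 CPM in HCN4F-TAC. It rose with 0.83, or 0.59 without HCN4F-TAC replicate 2, although the groups overlapped through HCN4F-TAC replicate 3. Popdc3, which encodes a membrane protein that binds cAMP, rose with 0.75. The catalytic subunit gene Prkaca had 0.05 in WT and -0.04 in HCN4F hearts and did not pass. Of 17 genes for the making, transport and breakdown of the transmitters 11 could be tested. Ddc, which makes dopamine, the substrate of dopamine β-hydroxylase, rose in WT hearts with 1.09 (0.47 in HCN4F hearts, not passing), and Maob, a monoamine oxidase, fell in HCN4F hearts with -0.49. In WT hearts the calls of Ddc and Pkig were lost in 9 and 7 of 22 settings, both of them also without either WT-TAC library, and in HCN4F hearts those of Pkig, Prkar1a, Popdc3 and Maob were lost in none.

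**Figure D5:**
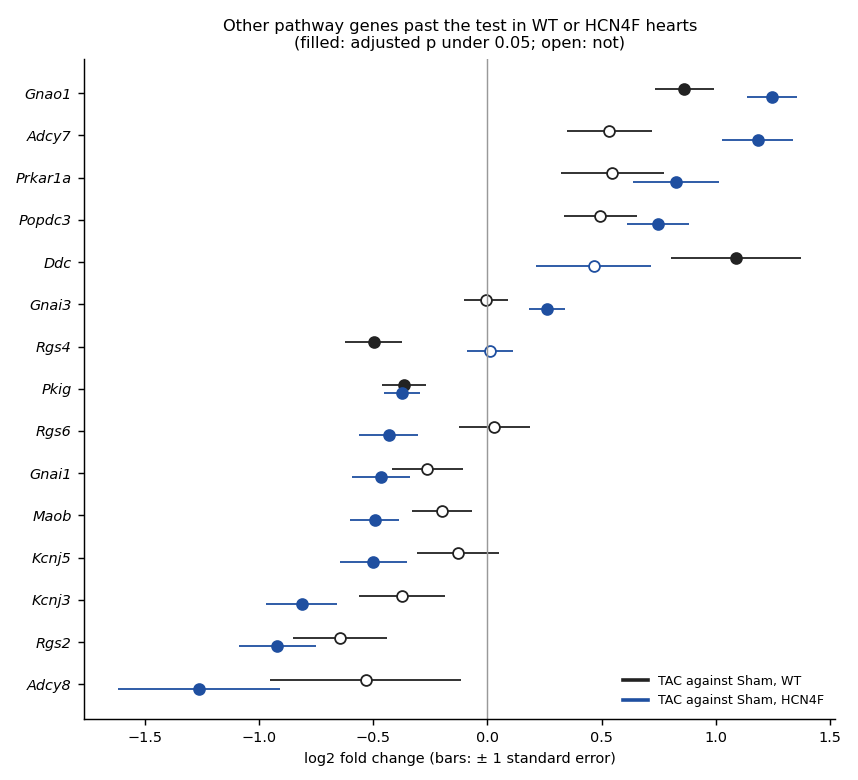
Log2 fold change with TAC in WT and HCN4F hearts, with bars of 1 standard error on either side, for other pathway genes that passed in at least 1 genotype, ordered by the value in HCN4F hearts. Filled points passed the adjusted p-value. Gnao1 and Adcy7 lie farthest to the right in HCN4F hearts and Adcy8 and Rgs2 farthest to the left.

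Some genes listed for ventricular muscle passed after TAC in both genotypes, and some listed for fibroblasts passed in HCN4F hearts. In HCN4F hearts after TAC 4 of 8 ventricular muscle genes fell and 1 rose, beside 6.41% and 7.2% of all genes tested. Their sum went from 60910 to 65428 CPM after Sham to 51892 to 58508 CPM after TAC (at least 53643 CPM without HCN4F-TAC replicate 2). In WT hearts 2 of 8 fell, beside 1.62% of all genes, with sums of 69239 to 71714 CPM and 64289 to 64332 CPM. Of 7 fibroblast genes 4 rose in HCN4F hearts (Col1a1, Col1a2, Lum and Postn), beside 7.2% of all genes, and the other 3 did not pass. The 7 summed to 603 to 771 CPM after Sham and 752 to 1306 CPM after TAC (at most 1192 CPM without HCN4F-TAC replicate 2). None passed in WT hearts, with 1 at an unadjusted p under 0.05. No gene of the lists for smooth muscle and pericytes, endothelium, macrophages or red blood cells passed in edgeR in either genotype, and at an unadjusted p under 0.05 there were 4 of 8 smooth muscle genes in WT hearts and no others. The part of these cell types in the levels of the 9 genes was not tested.

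Over the 14 libraries, the genes with the most similar log2 CPM to each of the 9 were sought among 11811 genes, as a description in which all points share the group structure and the scaling. For Dbh they were Crip2 (Pearson r 0.967) and Btbd2 (0.942), and for Adra1b they were Hhatl (0.930) and Ube2e3 (0.927). For Grk5 they were Ccnd2 (0.955) and Iqgap3 (0.937). For Adra1a they were Sox6 (0.885) and Myh6 (0.867), for Adrb1 Zfp768 (0.865) and Jmjd4 (0.836), and for Chrm2 Suclg2 (0.935) and Ivd (0.924). For the cyclases they included Jph2 (0.900) and Rnft1 (0.890) for Adcy5, Zmym2 (0.928) for Adcy6, and Pds5b (0.923) and Sgpp1 (0.923) for Adcy9. Among the 9 genes themselves Adra1b and Dbh had an r of 0.820 over the 14 libraries, Adra1a and Adra1b 0.729, Adcy6 and Adcy9 0.650, and Grk5 had -0.793 with Dbh and -0.717 with Adra1b.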

How the data were processed

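RNA-seq of left ventricles was analysed from 14 libraries. The authors deposited raw read counts per gene, 1 column per library, on GRCm38 per the labels; the aligner, the counting program, the use of strand and the annotation release are not given in the sources used here. Another 2 columns matched no sample and were not used. The authors' own analysis used DESeq2. Here counts were filtered with filterByExpr by group, scaled with TMM and fitted with edgeR 4.0.16 in R 4.3.3 (robust quasi-likelihood, 1 mean per group, all 14 libraries), with Benjamini-Hochberg adjustment over 15292 genes. A gene passed at an adjusted p under 0.05. DESeq2 1.42.0 and the alternatives in the closing section were run beside it, and the scripts were tested on simulated data. Levels per length used union exon lengths of GENCODE on GRCm38 (99.3% of gene identifiers matched), and log2 CPM used a prior count of 2. The counts, 22309914 to 35210939 per library, set the precision.

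The 9 genes, the gene lists and the rule for named genes were chosen with earlier results of these data known. Named were the 9 genes, up to 20 other pathway genes that passed in any comparison, every other receptor and, for each of the 9, the 2 genes of a mean CPM of at least 1 most like it; Grk2 and Prkaca were added after their values were seen. Some genes that this rule or the lists include are not reported here.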

Additional observations from a re-analysis of the deposited data

Results flagged for a closer look

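Adcy5 in HCN4F-Sham replicate 1 was at 135.02 CPM, and the nearest of the other 3 libraries of the group was at 95.3 CPM. The gap made up 0.895 of the range of the group. It was 1 of 27 sets of 4 libraries looked at in this way, and chance alone sets apart about 1 in 20. Without this library the log2 fold change of Adcy5 with TAC in HCN4F hearts was 0.24 and that between genotypes after Sham was -0.28, and both passed (edgeR, Benjamini-Hochberg adjusted p = 0.0406 and 0.0456). Over all genes the calls between genotypes after Sham rose from 72 to 567 when it was left out.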

How the results depend on the processing

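Of 1411 log2 fold changes of single genes that were recomputed under other settings, 1264 kept their direction and their side of the threshold, 86 lost the call, 38 gained it and 23 changed sign. The number of the 9 genes that passed after TAC in WT hearts was 1, and it was 3 with DESeq2 on all groups, 5 with DESeq2 and 4 with edgeR on the compared groups, 2 with RLE size factors, 2 without a filter and 0 to 3 with single libraries left out. In HCN4F hearts it was 3, and 1 with the threshold on the fold change and 1 to 4 with libraries left out. After Sham it was 0 between genotypes, and 1 with either DESeq2 fit, 1 without a filter and 0 to 1 with libraries left out. After TAC it was 0 between genotypes, and 1 with DESeq2 on the compared groups and 0 to 1 with libraries left out, as for the interaction (0 to 1).

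Over all genes the 694 that passed after TAC in WT became 1224 with DESeq2 on all groups, 1944 with DESeq2 and 2009 with edgeR on the compared groups, and 11 to 1014 with libraries left out. The 2081 in HCN4F became 1287 with edgeR on the compared groups and 1329 to 2394 with libraries left out. The 72 after Sham became 362 and 418 with DESeq2, 219 without a filter and 19 to 567 with libraries left out. The 17 after TAC became 228 and 175 with DESeq2, 3 with edgeR on the compared groups, 146 without a filter and 6 to 454 with libraries left out. The 0 for the interaction became 40 with DESeq2, 17 without a filter, 1 with non-robust estimation and 0 to 78 with libraries left out.

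Signs changed with libraries left out. After TAC in WT the ranges were -0.58 to 0.61 for Adrb1, -0.30 to 0.41 for Adra1a and -0.32 to 0.22 for Chrm2, and in HCN4F -0.031 to 0.25 for Adrb1. Between genotypes after TAC they were -0.61 to 0.59 for Adrb1 and -1.29 to 0.22 for Dbh. For the interaction they were -0.52 to 0.68 for Adrb1, -0.42 to 0.11 for Chrm2, -0.10 to 0.12 for Adcy5, -0.14 to 0.049 for Grk5 and -0.079 to 1.43 for Dbh. The cause was not tested.

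No pairing of the samples by replicate number was detected. The deviations of 18 same-numbered pairs correlated by -0.12 to 0.159, and 5 of 14 libraries correlated best with their own number. With so few libraries per group this cannot exclude a pairing. With the number as a replicate block 225 genes passed after TAC in WT, 41 after Sham and 8 after TAC between genotypes, and the interaction term of Adrb1 was 0.039. The block changed no count of the 9 genes.

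Counts of the other pathway genes and Schwann cell genes were recomputed in a step chosen after seeing the data. The pathway count of 5 in WT became 9 with DESeq2 on all groups, 14 with either tool on the compared groups, 3 with the block and 0 to 8 with libraries left out, and the 14 in HCN4F became 9 with edgeR on the compared groups. The Schwann cell count of 0 in WT became 2 with DESeq2 and at most 2 elsewhere. Leaving mitochondrial genes out of the totals moved 26 of 72 group means by 1 SD or more, by construction. Depth limits Dbh most, with 9 to 85 reads per library.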
